A study of Homo sapiens with 6 samples.

Results

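The genes described here were 10 components of transforming growth factor beta (TGF-beta) and activin signalling: the ligand genes INHBA, TGFB2, TGFB1 and TGFB3, the receptor genes TGFBR1 and TGFBR2, and the SMAD genes SMAD2, SMAD3, SMAD4 and SMAD7. They were selected by gene name, and each name was listed once among the 38648 genes and gene copies of the files. The libraries were bulk RNA-seq of HK-2, an immortalized cell line derived from the proximal tubule of a human kidney. In both groups the cells had received 8 Gy of X-rays, were examined 7 days later, and had been infected with a lentivirus and kept under puromycin. The lentivirus was a negative control in IR+NC-LV (n = 3) and carried PRDM16, a zinc finger transcriptional regulator, in IR+PR-LV (n = 3). Without an unirradiated library, the comparison addresses the effect of the PRDM16 virus within irradiated cells and not that of irradiation.

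TGF-beta ligands are made as latent precursors that integrins or proteases release. They bind the type II receptor TGFBR2, which phosphorylates the type I receptor TGFBR1, and this in turn phosphorylates SMAD2 and SMAD3. These partner with SMAD4 and enter the nucleus, where they induce matrix genes, growth arrest genes and the inhibitor SMAD7. Activin A, the dimer of the INHBA product, signals to the same SMADs through other receptors. In kidney tubules the pathway is known for its part in fibrosis, and ligands of the family belong to the secretions of senescent cells.

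The windows upstream of the 3 ligand genes with the most reads are given to show how unlike their start regions are. They hold 250 bases before the first RefSeq start in the table used (GRCh38.p14), in the direction of the gene. Capitals mark 2 motifs that were searched on both strands, CAGACA, which contains the short core bound by SMAD3 and SMAD4, and TATAAA, the letters of the classical box that positions transcription starts.
TGFB1, chr19:41353923-41354172, minus strand: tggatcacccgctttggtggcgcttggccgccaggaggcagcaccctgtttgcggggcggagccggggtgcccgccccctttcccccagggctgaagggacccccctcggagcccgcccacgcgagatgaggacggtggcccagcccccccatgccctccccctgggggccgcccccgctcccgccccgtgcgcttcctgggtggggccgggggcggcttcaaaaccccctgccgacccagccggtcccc
TGFB2, chr1:218345086-218345335, plus strand: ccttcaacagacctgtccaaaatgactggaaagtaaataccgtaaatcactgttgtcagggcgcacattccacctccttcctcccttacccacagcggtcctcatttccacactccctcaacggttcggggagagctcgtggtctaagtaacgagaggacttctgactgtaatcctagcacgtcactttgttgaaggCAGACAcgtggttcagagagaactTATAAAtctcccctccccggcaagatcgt
INHBA, chr7:41703091-41703340, minus strand: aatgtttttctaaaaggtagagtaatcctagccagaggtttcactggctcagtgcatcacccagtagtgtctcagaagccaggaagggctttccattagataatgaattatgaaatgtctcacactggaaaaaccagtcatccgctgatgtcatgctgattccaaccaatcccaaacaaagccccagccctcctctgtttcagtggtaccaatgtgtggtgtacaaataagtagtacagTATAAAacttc
The TGFB1 window held neither motif and had a GC content of 76.8%. The TGFB2 window had a GC content of 50.4% and held CAGACA beginning 53 bases and TATAAA beginning 29 bases before the start. The INHBA window had a GC content of 42.8% and held TATAAA beginning 11 bases before its start, which is not the outermost 5′ end of the gene in the deposited files. Among 27305 such windows, 13.6% held the first motif and 11.1% the second. The matches describe letters only, and no binding was measured in these libraries.

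Library totals lay between 13407074 and 28540041 counts. PRDM16 had 2, 0 and 1 counts with the control virus and 14, 10 and 8 counts with the PRDM16 virus. Its transcript was thus higher in every library with the PRDM16 virus but scarce in both groups. Among tubular and epithelial markers, KRT8, KRT18, KRT19, PAX8, CDH2 and GGT1 were well above 1 TPM and AQP1 was low at 2.92 TPM, while LRP2, CUBN, ANPEP and CDH1 were below 1 TPM. Of 11 such markers, 7 reached 1 TPM, and their summed level was 2341 to 2432 TPM in IR+NC-LV, against 2332 to 2826 TPM in IR+PR-LV. All 4 endothelial markers were below 1 TPM, 1 of 5 fibroblast markers (LUM) and 2 of 4 immune markers (CD68 and CD14) reached it, and the summed immune level was 186 to 204 TPM in IR+NC-LV, against 158 to 174 TPM in IR+PR-LV. These sums did not overlap, whereas CD68, which makes up most of them, overlapped between the groups in TMM-scaled CPM, as did CD14. The remaining immune markers, PTPRC and CD3E, were nearly unread, with 10 and 2 counts over the 6 libraries. Whether the difference in TPM has a part in any result below was not tested. At the adjusted threshold of 0.05, 10 of 15340 tested genes differed between the groups by edgeR's quasi-likelihood test.

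All 10 genes were read in every library and differed widely in level. INHBA stood far above the others, with 399 to 468 TPM (a level scaled by gene length and to the same sum in every library) over the 6 libraries. SMAD3 followed with 111 to 126 TPM and TGFB2 with 105 to 126 TPM. The order of these 2 was not settled by the libraries, since SMAD3 was the higher in 4 of 6. TGFB1 lay at 56.2 to 75.5 TPM, below TGFB2 and above both receptors in every library. TGFBR2 had 43.6 to 51.0 TPM, TGFBR1 had 41.5 to 46.3 TPM, SMAD7 had 32.2 to 44.4 TPM and SMAD4 had 27.0 to 36.1 TPM, and each of these ranges overlapped that of its neighbour. SMAD2, at 6.44 to 7.74 TPM, and TGFB3, at 3.97 to 5.78 TPM, were far lower, and their ranges did not overlap. By mean TPM, INHBA ranked 344 among 15340 tested genes, which is the top 2.24%, whereas TGFB3 ranked 11025.

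These levels depend on the length by which reads are divided. The files give SMAD2 42081 exonic bases, while its 5 GENCODE transcripts range from 1714 to 34526 bases with a median of 10445. Before division by length SMAD2 was close to TGFBR2, with 10042 against 10875 counts over the 6 libraries. With the longest GENCODE transcript as length, CPM divided by length in kilobases was 173 for INHBA, 41.4 for SMAD3 and 40.9 for TGFB2. On that scale TGFB1 (19.9) lay just below TGFBR2 (20.6) and TGFBR1 (20.5), and SMAD7 (8.92) below SMAD4 (9.39), so these neighbours changed places. With the median transcript length the values moved further, to 169 for SMAD3 against 41.3 for TGFB2, and SMAD7 (30.9) lay above TGFBR1 (22.9), TGFBR2 (20.6) and TGFB1 (19.9), with SMAD4 at 9.70 and SMAD2 at 8.40. On both scales INHBA stayed first (525 with the median length) and TGFB3 last (2.20 and 2.92).

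**Figure D1:**
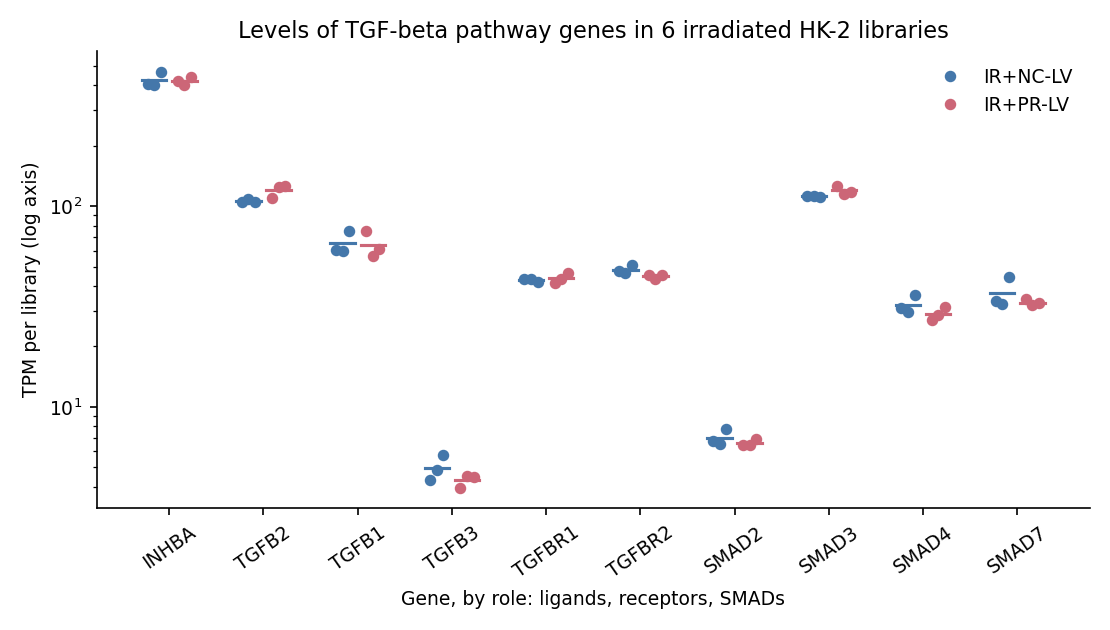
Level of each gene in TPM on a log axis, by role. Points are single libraries (3 per group) and short lines are group means. INHBA lay at 399 to 468 TPM and TGFB3 at 3.97 to 5.78 TPM, and within most genes the groups overlapped.

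Between the groups, 0 of the 10 genes passed the adjusted threshold in edgeR, where 0.0652% of all tested genes did (0.0196% higher and 0.0456% lower in IR+PR-LV). 1 gene, TGFB2, had an unadjusted p under 0.05 and was higher in IR+PR-LV, beside 4.55% of all tested genes higher, 5.97% lower and 10.5% in either direction. DESeq2 gave 2 of the 10 at an unadjusted p under 0.05, beside 4.71% of the 28825 genes it tested, and 0 past its adjusted threshold, beside 0.583%. DESeq2 was run on every gene with any count, so these shares include scarcely read genes that the edgeR filter removed. By its default filter DESeq2 gives some scarcely read genes no adjusted p, and 0.583% counts these as not passing. Among genes given an adjusted p the share would be higher and was not computed. The DESeq2 shares over the 15340 genes alone were not computed. In 3 genes the libraries of the groups did not overlap in CPM (counts scaled by library total and TMM factor), namely TGFB2 and SMAD3, which lay above in IR+PR-LV, and TGFBR2, which lay below. Of all tested genes, 17.0% were separated in this way, 7.46% above and 9.54% below. Of the 10 log2 fold changes 5 were above 0 and 5 below. Their median was -0.0075, beside 0.0044 over all tested genes, and their median size was 0.084, beside 0.104. In bulk libraries, fewer cells that express a gene and less of its RNA per cell cannot be told apart. The 95% intervals of the 10 fold changes together spanned 0.714-fold (the lower end for TGFB3) to 1.29-fold (the upper end for TGFB2).

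INHBA, on chromosome 7 (41685101 to 41710532, minus strand, hg38), encodes the activin beta A chain. Its level was 1015, 1022 and 1088 CPM in IR+NC-LV replicates 1 to 3 and 1063, 1017 and 1099 CPM in IR+PR-LV replicates 1 to 3. The groups overlapped and their means were 1042 ± 40.5 and 1060 ± 41.3 CPM (SD, n = 3 each). The log2 fold change was 0.02 with a standard error of 0.059 and a 95% interval from -0.11 to 0.16 (edgeR adjusted p = 0.906). With 120198 counts over the 6 libraries, INHBA was the most deeply read of the 10 genes.

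TGFB2, on chromosome 1 (218345336 to 218444619, plus strand), encodes the isoform that lacks the integrin-binding RGD motif in its latency peptide. It had 192, 203 and 179.9 CPM in IR+NC-LV, against 204, 231 and 229.9 CPM in IR+PR-LV. The lowest IR+PR-LV library, replicate 1, lay just above the highest IR+NC-LV library, replicate 2. The log2 fold change was 0.21 ± 0.073 (SE) with a 95% interval from 0.05 to 0.37 (edgeR unadjusted p = 0.018, adjusted p = 0.383), the largest of the 10 genes in size. On CPM from the plain library totals, a scale added after seeing the data, the groups overlapped. Of its exonic bases 25.2% are shared with TGFB2-AS1 on the other strand and TGFB2-OT1 on the same strand. Those genes had 11 to 18 counts and 0 counts per library, against 2500 to 6471 for TGFB2, and the strand setting of the counting is not given in the sources used here.

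TGFB1, on chromosome 19 (41330323 to 41353922, minus strand), encodes the isoform most often studied in kidney fibrosis. It had 51.6, 52.3 and 60.0 CPM in IR+NC-LV, against 65.4, 49.1 and 52.1 CPM in IR+PR-LV. Replicate 1 of IR+PR-LV held the highest level of all and replicate 2 of the same group the lowest, so the spread within IR+PR-LV covered all of IR+NC-LV. The log2 fold change was 0.02 (95% interval -0.23 to 0.28, edgeR adjusted p = 0.958). It was -0.11 without IR+PR-LV replicate 1, -0.02 without IR+NC-LV replicate 1 and -0.01 without IR+NC-LV replicate 2, so that its sign rests on single libraries.

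TGFB3, on chromosome 14 (75958097 to 75983011, minus strand), encodes the third isoform. It had 5.19, 5.94 and 6.48 CPM in IR+NC-LV, against 4.82, 5.54 and 5.38 CPM in IR+PR-LV, from 81 to 155 counts per library. The groups overlapped, and the log2 fold change of -0.16 had the widest interval of the 10 genes, from -0.49 to 0.18 (edgeR adjusted p = 0.754).

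As a share of the summed TPM of the 3 TGF-beta isoforms, TGFB2 made up 61.9%, 62.7% and 56.6% in IR+NC-LV, against 58.1%, 67.1% and 65.8% in IR+PR-LV. It was the main isoform transcript in every library, and the groups overlapped (exact permutation test, two-sided, p = 0.4). The share of TGFB1 was 36.8% ± 3.10 in IR+NC-LV, against 34.1% ± 5.05 in IR+PR-LV (SD, n = 3 each, exact permutation p = 0.5). The share of TGFB3 was 2.55%, 2.79% and 3.10% in IR+NC-LV, against 2.09%, 2.45% and 2.35% in IR+PR-LV. All IR+PR-LV libraries were below all IR+NC-LV libraries, with an exact permutation p = 0.1, the smallest that 3 against 3 libraries can give. INHBA held 70.6% ± 0.849 of the TPM of the 4 ligands in IR+NC-LV, against 69.0% ± 0.687 in IR+PR-LV (SD, n = 3 each), again without overlap and with an exact permutation p = 0.1. In CPM, INHBA and TGFB3 alone overlapped between the groups, while TGFB2, part of both sums, was separated upward. Of all tested single genes 17.0% were separated, and the rate among shares was not computed. The 4 ligand shares were compared as one family with that of SMAD3 below, and none of the 5 could pass 0.05 in this design. With Benjamini-Hochberg adjustment over these 5, the exact permutation p became 0.25 for TGFB3 and INHBA, 0.333 for SMAD3 and 0.5 for TGFB1 and TGFB2.

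**Figure D2:**
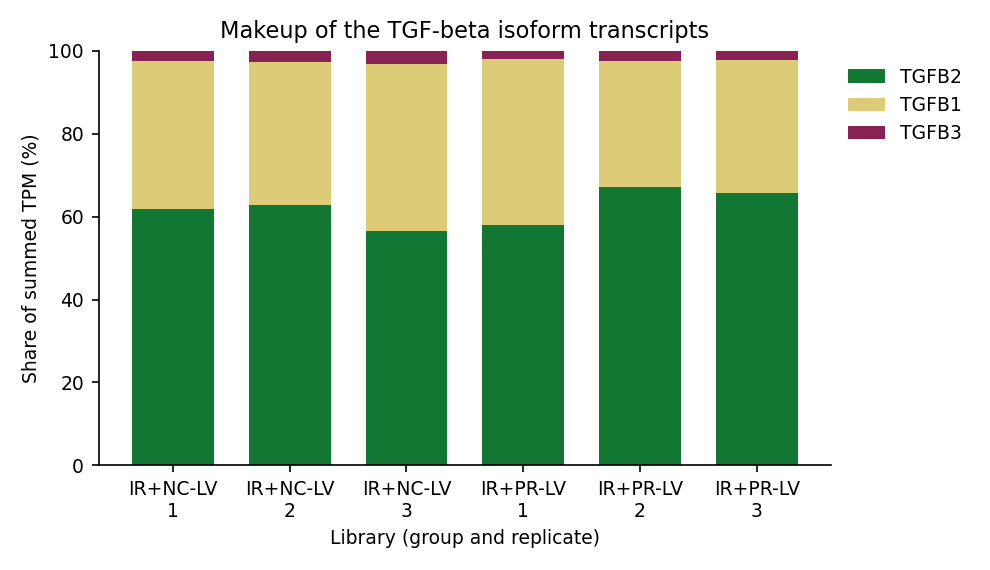
Share of TGFB2, TGFB1 and TGFB3 in their summed TPM (percent), 1 bar for each library. TGFB2 held 56.6% to 67.1% and TGFB3 2.09% to 3.10% of the isoform transcripts.

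TGFBR1, on chromosome 9 (99104038 to 99154192, plus strand), encodes the type I receptor kinase, also called ALK5. It had 134, 137 and 121 CPM in IR+NC-LV, against 129.9, 136 and 143 CPM in IR+PR-LV. The groups overlapped, with a log2 fold change of 0.06 (95% interval -0.10 to 0.22, edgeR adjusted p = 0.797).

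TGFBR2, on chromosome 3 (30606472 to 30694142, plus strand), encodes the type II receptor kinase that binds the ligand first. It had 97.0, 96.9 and 97.6 CPM in IR+NC-LV, against 94.5, 91.3 and 93.0 CPM in IR+PR-LV. Every IR+PR-LV library was below every IR+NC-LV library, but the difference was small, 97.2 ± 0.394 against 92.9 ± 1.59 CPM (SD, n = 3 each). Its log2 fold change was -0.06 with a 95% interval from -0.19 to 0.06 (edgeR adjusted p = 0.729). The ratio of TGFBR2 to TGFBR1 in TPM was 1.09, 1.07 and 1.21 in IR+NC-LV, against 1.10, 1.01 and 0.981 in IR+PR-LV, so the receptors were close to equal in level and the groups overlapped.

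SMAD3, on chromosome 15 (67065602 to 67195195, plus strand), encodes the receptor-activated SMAD that binds DNA directly. It had 250.4, 256 and 232 CPM in IR+NC-LV, against 287, 264 and 264 CPM in IR+PR-LV. The groups did not overlap, and IR+PR-LV replicate 1 was the highest. The log2 fold change was 0.14 ± 0.064 (SE), with a 95% interval from -0.0034 to 0.28 (edgeR unadjusted p = 0.055, adjusted p = 0.482). Over the other settings and with each library left out in turn, the value stayed between 0.10 and 0.17.

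SMAD2, on chromosome 18 (47808957 to 47931188, minus strand), encodes the other receptor-activated SMAD of the pathway, whose main form does not bind DNA by itself. It had 87.4, 86.0 and 93.4 CPM in IR+NC-LV, against 84.4, 85.7 and 89.7 CPM in IR+PR-LV. The groups overlapped, with a log2 fold change of -0.04 (95% interval -0.18 to 0.11, edgeR adjusted p = 0.867). Of the reads on SMAD2 and SMAD3 together, SMAD3 took 73.4% ± 1.86 in IR+NC-LV, against 75.8% ± 1.34 in IR+PR-LV (SD, n = 3 each). In TPM the shares were 94.1% ± 0.533 and 94.8% ± 0.362 (exact permutation p = 0.2), a scale that divides SMAD2 by its longer exonic length. On both scales SMAD3 exceeded SMAD2 in every library.

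SMAD4, on chromosome 18 (51030213 to 51085042, plus strand), encodes the common partner of activated SMADs. It had 83.9, 81.4 and 90.8 CPM in IR+NC-LV, against 73.8, 79.4 and 84.9 CPM in IR+PR-LV. The groups overlapped, and the log2 fold change was -0.10 (95% interval -0.27 to 0.07, edgeR adjusted p = 0.681). Of its exonic bases 3.04% are shared with LOC105372117 on the other strand.

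SMAD7, on chromosome 18 (48919853 to 48950965, minus strand), encodes the inhibitory SMAD that blocks the type I receptor and is itself induced by the pathway. It had 38.2, 37.7 and 47.1 CPM in IR+NC-LV, against 39.5, 37.4 and 37.2 CPM in IR+PR-LV. Replicate 3 of IR+NC-LV stood above all other libraries, which lay between 37.2 and 39.5 CPM. The log2 fold change was -0.11 (95% interval -0.32 to 0.11, edgeR adjusted p = 0.743), and it was 0.0046 without IR+NC-LV replicate 3. Relative to SMAD3, the SMAD7 level in TPM was 0.301, 0.290 and 0.399 in IR+NC-LV, against 0.271, 0.280 and 0.277 in IR+PR-LV. The groups did not overlap in this ratio, which was given no test, and the closest values were 0.290 and 0.280. SMAD3 alone was separated upward in CPM, whereas SMAD7 alone overlapped. Of all tested single genes 17.0% were separated, and the share among ratios was not computed.

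**Figure D3:**
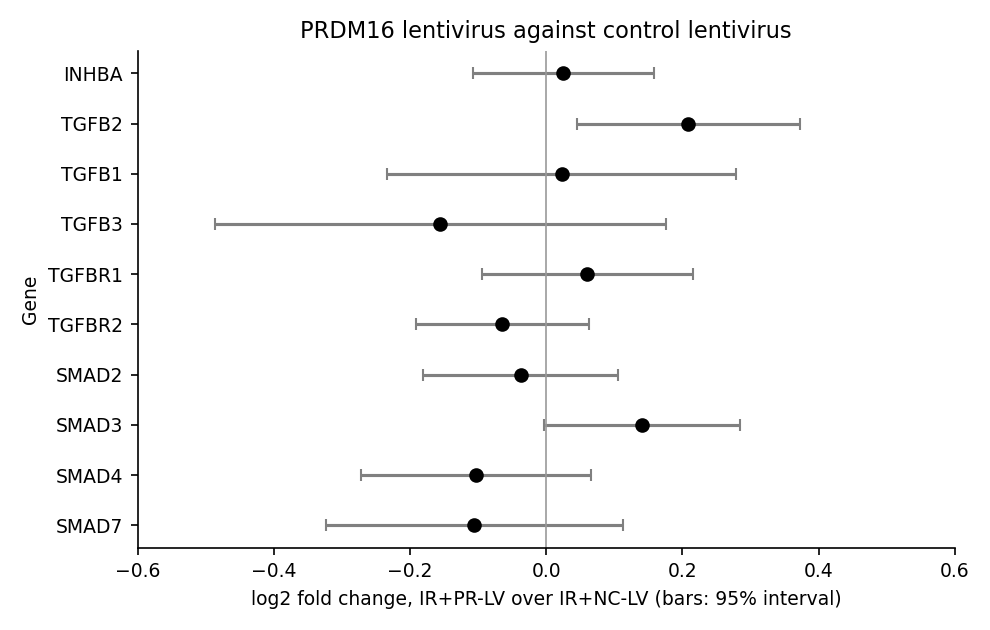
Log2 fold change of IR+PR-LV over IR+NC-LV for each gene (points) with its 95% interval (bars) from edgeR, 3 libraries per group. Only the interval of TGFB2, from 0.05 to 0.37, lay wholly on one side of 0.

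IR+NC-LV replicate 3, the library with the lowest total count, was the highest of its group for 7 of the 10 genes and the lowest for the other 3 (TGFB2, TGFBR1 and SMAD3). Among all tested genes this library was the highest of its group in 40.1% and the lowest in 40.5%. IR+PR-LV replicate 1 was the highest of its group for 4 of the 10 genes and the lowest for 5. Among all tested genes it was the highest in 41.0% and the lowest in 40.7%. Whether the lower depth of the former library has a part in these positions was not tested.

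Among the genes whose values over the 6 libraries were most like those of TGFB2 were TTC33 and PLS3. Likeness was the root mean square difference of log2 CPM after centring each gene, and it was 0.0126 and 0.0143, against a median of 0.157 over the 9816 genes compared. For SMAD3 the nearest genes were MRPS5, SUN1 and PFKM, at 0.0162, 0.0189 and 0.0198, against a median of 0.127. The named genes were picked as the nearest of 9816, so their place below the median follows from that choice. All values come from the same 6 libraries and share their depth and scaling.

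Beyond these 10 genes, 111 genes of the pathway were taken in 7 lists, of which 89 had enough reads to be tested. None of the 89 passed the threshold in edgeR, and 12 had an unadjusted p under 0.05 (4 higher and 8 lower in IR+PR-LV), beside 10.5% of all tested genes (4.55% higher and 5.97% lower). DESeq2, which tested 109 of the genes, gave 13 at an unadjusted p under 0.05 and 4 past the adjusted threshold, beside 4.71% and 0.583% of all genes it tested. Those shares again include the scarcely read genes that the edgeR filter removed, and 0.583% counts genes given no adjusted p as not passing. The groups did not overlap for 17 of the 89 (7 above and 10 below), beside 17.0% of all tested genes (7.46% above and 9.54% below), and the median log2 fold change was -0.0071.

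Of 26 other ligand genes of the family, 11 were tested, 4 with a log2 fold change above 0 and 7 below (median -0.16). GDF15, a stress-induced ligand, had the highest level, 127 ± 10.4 TPM in IR+NC-LV, against 115 ± 14.7 TPM in IR+PR-LV (SD, n = 3 each). INHBE, which encodes the activin beta E chain, had 17.8, 17.9 and 31.1 CPM in IR+NC-LV, against 8.99, 9.40 and 9.29 CPM in IR+PR-LV. All IR+PR-LV libraries were far below the others, and IR+NC-LV replicate 3 was the highest. Its log2 fold change was -1.26 ± 0.208 (SE) and its edgeR adjusted p of 0.0755 missed the threshold, while with DESeq2 the adjusted p was 5.6e-07. Over the settings tried the adjusted p ranged from 1.3e-08 to 0.259 and the log2 fold change from -1.40 to -0.95. BMP2, a bone morphogenetic protein, had 20.2, 16.9 and 26.6 CPM against 15.1, 13.1 and 16.3 CPM, without overlap (log2 fold change -0.51, edgeR adjusted p = 0.347). AMH, the anti-Müllerian hormone, had 10.8, 11.0 and 11.7 CPM against 20.5, 12.0 and 12.2 CPM, with IR+PR-LV replicate 1 far above all other libraries (log2 fold change 0.41, edgeR adjusted p = 0.502).

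Of 13 other receptors and co-receptors, 12 were tested, 5 above 0 and 7 below (median -0.10). ACVR1B, the type I receptor for activin, had 60.7, 60.6 and 55.8 CPM in IR+NC-LV, against 63.5, 62.6 and 64.6 CPM in IR+PR-LV, without overlap (log2 fold change 0.10, edgeR adjusted p = 0.618). BMPR1A and BMPR2, receptors for bone morphogenetic proteins, had log2 fold changes of 0.13 and 0.09. BAMBI, a decoy receptor that lacks a kinase domain, had 5.37, 4.65 and 4.46 CPM against 3.04, 3.79 and 2.99 CPM. All IR+PR-LV libraries were lower, but the log2 fold change of -0.55 ± 0.166 did not pass the threshold (edgeR adjusted p = 0.326). All 4 other SMAD genes were tested, 2 above 0 and 2 below. SMAD5 and SMAD1, which serve bone morphogenetic proteins, had log2 fold changes of 0.04 and -0.12, and SMAD6, the other inhibitory SMAD, had 0.16 (edgeR adjusted p = 0.870, 0.686 and 0.570).

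Of 15 genes for latency and activation of the ligands, 14 were tested, 9 above 0 and 5 below (median 0.10). ITGB1, the beta chain of many matrix receptors, had 2230, 2374 and 2153 CPM in IR+NC-LV, against 2511, 2801 and 2668 CPM in IR+PR-LV. The groups did not overlap, and the log2 fold change was 0.24 ± 0.065 (SE, edgeR adjusted p = 0.264, the smallest p of the list). ITGAV, the alpha chain of the integrins that release latent TGF-beta, had a log2 fold change of 0.09 (adjusted p = 0.695), and its partner ITGB3 had 0.13 (adjusted p = 0.502). THBS1, thrombospondin, which can also activate the latent form, had -0.05 (adjusted p = 0.868). Of 12 extracellular antagonists, 8 were tested, 6 above 0 and 2 below (median 0.14). CHRDL1 and TWSG1, which bind bone morphogenetic proteins, and FSTL3, which binds activin, had 0.09, 0.16 and -0.02. GREM1, an antagonist of bone morphogenetic proteins, was listed in 4 copies, and its reads may be split among them. The copy with the most reads had 57.0, 54.7 and 65.9 CPM against 55.1, 88.1 and 95.9 CPM, with overlap, and a log2 fold change of 0.43 (edgeR adjusted p = 0.443), or 0.44 when copies were summed.

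Of 20 intracellular regulators, 19 were tested, 9 above 0 and 10 below (median -0.0032). NEDD4L, a ubiquitin ligase that targets activated SMAD2 and SMAD3, had 174, 171 and 182 CPM in IR+NC-LV, against 150.4, 147 and 149 CPM in IR+PR-LV. The groups did not overlap, and the log2 fold change was -0.24 ± 0.055 (SE, edgeR adjusted p = 0.210). STRAP, a receptor-associated protein, had 351, 350.0 and 329 CPM against 367, 384 and 405 CPM (log2 fold change 0.17, adjusted p = 0.397). SMURF2, a ubiquitin ligase that acts with SMAD7 on the receptor, and PMEPA1, a feedback inhibitor, had 0.10 and -0.02.

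All 21 target genes were tested, 8 with log2 fold changes above 0 and 13 below (median -0.10, against 0.0044 over all tested genes). Of these, 5 had an unadjusted p under 0.05, 1 higher (ID1) and 4 lower (KLF10, SNAI2, TSC22D1 and CDKN1A), and all 5 were separated between the groups. Of all tested genes, 10.5% had such a p and 17.0% were separated. TSC22D1, CDKN1A and ID1 are named after their values were seen. Abundant targets included FN1 and TGFBI, both with overlapping groups. FN1, fibronectin, had 1907 ± 206 TPM in IR+NC-LV, against 1702 ± 119 TPM in IR+PR-LV (log2 fold change -0.12, edgeR adjusted p = 0.598). TGFBI, a secreted matrix protein, had 1524 ± 391 and 1524 ± 178 TPM (0.05, 95% interval -0.26 to 0.36; SD, n = 3 each).

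KLF10, the TGF-beta-inducible early gene, had 346, 315 and 495 CPM in IR+NC-LV, against 213, 195 and 206 CPM in IR+PR-LV. Every IR+PR-LV library was lower, and IR+NC-LV replicate 3 was the highest of all. The log2 fold change was -0.91 ± 0.146 (SE) with an edgeR adjusted p of 0.0755. Without IR+NC-LV replicate 3 it was -0.69 with an adjusted p of 0.0165, and over the settings tried the adjusted p ranged from 5.2e-10 to 0.251. SNAI2, a repressor of epithelial genes, had 55.8, 49.6 and 68.5 CPM against 41.8, 41.6 and 38.9 CPM, a log2 fold change of -0.50 ± 0.112 (SE, edgeR adjusted p = 0.192, and 0.0068 with DESeq2). KLF10, SNAI2 and INHBE all had their highest value in IR+NC-LV replicate 3, as SMAD7 did. That library also held the highest value of its group in 40.1% of all tested genes. Whether a trait of the library has a part in the shared peak was not tested. KLF10 and SNAI2 are also controlled by signals other than TGF-beta, and INHBE was listed as a ligand and not as a target. These libraries hold no measure of SMAD phosphorylation or of secreted ligand.

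**Figure D4:**
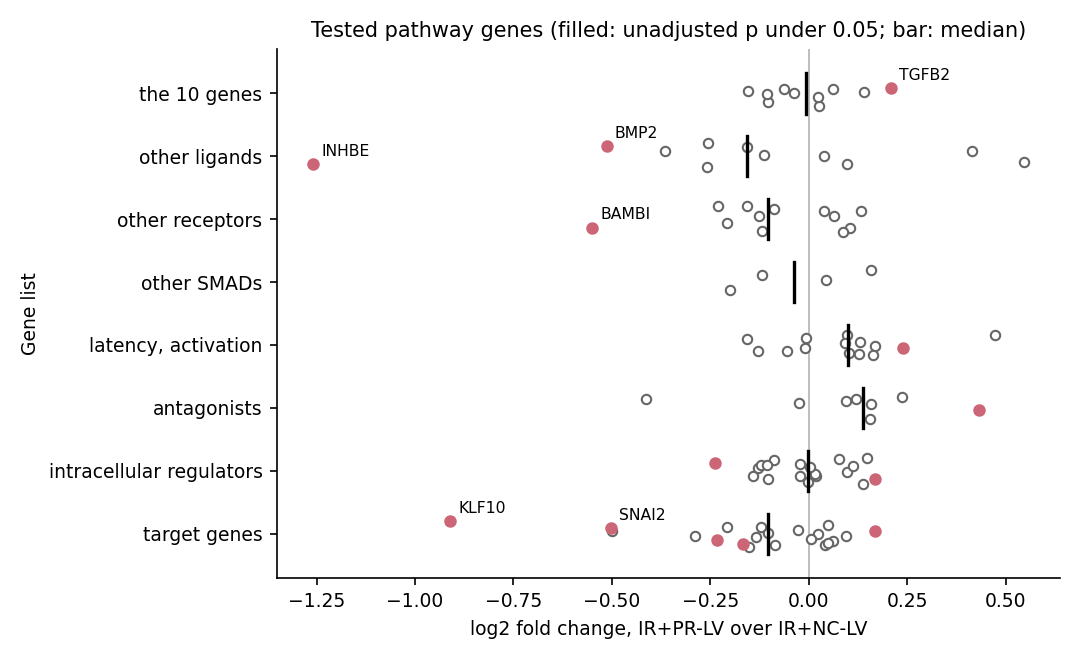
Log2 fold change of IR+PR-LV over IR+NC-LV for every tested gene, 1 row for each list, with the median as a vertical bar and filled points for an unadjusted p under 0.05. The 10 genes lay between -0.16 and 0.21, and INHBE (-1.26) and KLF10 (-0.91) lay farthest from 0.

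**Figure D5:**
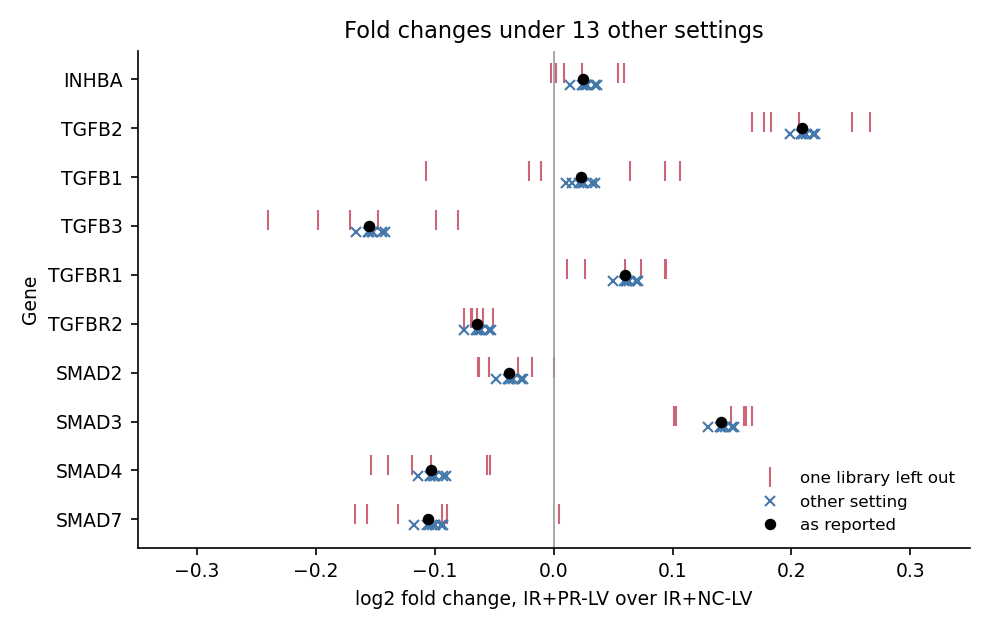
Log2 fold change of each of the 10 genes as reported (points), with 1 library left out (vertical marks) and under the other settings (crosses). TGFB1 ranged from -0.11 to 0.11 and TGFB2 from 0.17 to 0.27, and in 6 genes no setting changed the sign.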

How the data were processed

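Poly(A)-selected RNA of the 6 libraries was sequenced as paired reads. The authors deposited, for each library, raw counts per gene together with TPM and FPKM values. The TPM values follow from the deposited counts and exonic lengths, and the FPKM values were not used. The submitters' processing notes name hg38, CASAVA, featureCounts 2.0.1 and DESeq2 1.16.1. The aligner, annotation and strand setting are not given in the sources used here.

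Counts were compared with edgeR 4.0.16 in R 4.3.3 (filterByExpr minimum count 10, minimum total 15, TMM factors, quasi-likelihood test without covariates, Benjamini-Hochberg adjustment over 15340 genes, threshold 0.05). Each standard error was derived from the fold change and its F value. CPM values use TMM factors and TPM values are as deposited. Shares were compared by two-sided exact permutation tests. The procedure was tested on simulated data with planted changes far larger than those of the 10 genes. That test does not show whether changes of their size would be found. Nothing in the sources says that libraries of a group came from separate cultures. The spread between libraries on which the p-values rest may therefore be technical, and they may not hold for new cultures. The 10 genes and the 7 lists were chosen with earlier results of these data known. The rule named the 10 genes and, in each list, the 3 tested genes with the highest mean TPM, the 2 with the smallest unadjusted p and any past the threshold. Of the genes so named and the nearest genes by likeness, 2 are not reported here. A gene listed in several copies entered by the copy with the most counts. Likeness was computed over genes with a mean of at least 10 CPM. Alternatives were RLE and upper-quartile normalization, other filters, summed copies, DESeq2 1.42.0, the replicate number as a block, other thresholds and each library left out. Lengths for other per-length levels came from GENCODE release 29.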

Additional observations from a re-analysis of the deposited data

How the results depend on the processing

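None of the 10 genes passed the threshold in edgeR or DESeq2 under any of 13 alternatives, and the smallest of the 130 adjusted p-values was 0.142 (TGFB2 without IR+PR-LV replicate 1). In 6 values the sign turned, all with 1 library left out: over the left-out libraries TGFB1 ranged from -0.11 to 0.11, SMAD2 from -0.064 to 0.00014, SMAD7 from -0.17 to 0.0046 and INHBA from -0.0020 to 0.059. Over all tested genes, 10 passed as reported, 342 of 28831 without a filter beyond 1 count, 168 with DESeq2, 1 at an adjusted p under 0.01 and 58 under 0.10. With 1 library left out the count was 1 to 28: 1 without IR+NC-LV replicate 1, 1 also without IR+PR-LV replicate 3, 28 without IR+NC-LV replicate 2 and 16 without IR+NC-LV replicate 3. Of the other pathway genes (89 tested as reported, 109 without the filter or with DESeq2), 5 passed without the filter (INHBE, KLF10, SNAI2, BMP2 and GREM1), 4 with DESeq2 (INHBE, KLF10, SNAI2 and ITGB1), 2 at an adjusted p under 0.10 (INHBE and KLF10) and 0 to 2 with a library left out (KLF10 without IR+NC-LV replicate 2, KLF10 and INHBE without replicate 3). The cause was not tested. The share of SMAD3 differed by 2.36 percentage points on raw counts, against 0.660 on TPM. The GENCODE lengths for levels and shares, the other scalings for overlap and the alternatives for KLF10, INHBE and SNAI2 were chosen after seeing the data.

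Libraries of the 2 groups share the numbers 1 to 3. The deviations of same-numbered libraries correlated at -0.0088, 0.051 and 0.071 over 15340 genes, and 3 of 6 libraries correlated best with their own number, so the numbers were not taken to pair the libraries. With the replicate number as a block, 3 of all tested genes and 0 of the 10 passed.

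Depth limits TGFB3 most, with 81 to 155 counts per library.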

Other observations

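ID3, a target of bone morphogenetic proteins and TGF-beta, was listed in 2 copies, with nearly all reads on a copy outside the assembled chromosomes. That copy had 151, 1121 and 171 counts in IR+NC-LV replicates 1 to 3 and 440, 467 and 360 in IR+PR-LV replicates 1 to 3. IR+NC-LV replicate 2 was far above the others of its group, while the groups overlapped (log2 fold change -0.29, edgeR adjusted p = 0.883). ID3 was chosen after its values were seen, and the other copy had 0 to 4 counts per library.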
